A study of Arabidopsis thaliana with 24 samples.

Results

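Abscisic acid (ABA) receptors of Arabidopsis thaliana were followed through 9 genes, PYR1 (AT4G17870), PYL1 (AT5G46790), PYL2 (AT2G26040), PYL4 (AT2G38310), PYL5 (AT5G05440), PYL6 (AT2G40330), PYL7 (AT4G01026), PYL8 (AT5G53160) and PYL9 (AT1G01360). They were taken by locus identifier from a table of 32833 genes, of which 20828 had enough reads to be tested, all 9 receptors among them. The 24 RNA-seq libraries came from whole Columbia-0 seedlings, either wild type (WT) or pifq, a mutant in the genes PIF1, PIF3, PIF4 and PIF5, with no alleles named by the labels. Each genotype was grown in darkness or in light, with ABA or with ethanol as mock, and each of the 8 groups had 3 biological replicates. All seeds were stratified for 2 days and all plates held 1% sucrose at 22 °C. Dark seedlings had a 2 h light pulse, were moved to ABA or mock after 62 h and stayed there 4 more days. Light seedlings grew under 10 µmol m-2 s-1 with 16 h of light and 8 h of dark, were moved after 72 h and stayed 5 more days. Light, age and the length of the ABA or mock treatment therefore differ together and cannot be told apart. No label states the ABA dose.

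In this family, a receptor that has bound ABA docks onto a clade A PP2C phosphatase and blocks it, which frees SnRK2 kinases to phosphorylate ABF and ABI5 transcription factors. PYR1, PYL1 and PYL2 (subfamily III) pair with themselves when no ABA is bound, whereas PYL4, PYL5 and PYL6 (subfamily II) and PYL7, PYL8 and PYL9 (subfamily I) act as monomers. PIFs are bHLH transcription factors that accumulate in darkness, are removed after phytochrome is activated by light, and bind DNA at G-box and PBE-box elements. The core of the ABA-responsive element, to which ABF and ABI5 factors bind, is ACGTG.

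Sequences just upstream of 4 of the genes are shown because ABA response and PIF binding have known DNA elements. PYL4, PYL6 and PYL2 also carried the largest receptor changes described here. They were read from RefSeq TAIR10.1 as the 250 bases before the annotated gene start, 5′ to 3′ on the gene's strand. None of the 3 whole windows shown holds ACGTG on either strand. The PYL4 window lies at chr2:16049668-16049917 (+ strand), that of PYL6 at chr2:16846195-16846444 (- strand) and that of PYL2 at chr2:11095543-11095792 (- strand).
PYL4: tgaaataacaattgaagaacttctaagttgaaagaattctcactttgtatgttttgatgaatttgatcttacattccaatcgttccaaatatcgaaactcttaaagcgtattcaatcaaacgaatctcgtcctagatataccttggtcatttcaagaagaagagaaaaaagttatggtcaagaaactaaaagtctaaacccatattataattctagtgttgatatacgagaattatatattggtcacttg
PYL6: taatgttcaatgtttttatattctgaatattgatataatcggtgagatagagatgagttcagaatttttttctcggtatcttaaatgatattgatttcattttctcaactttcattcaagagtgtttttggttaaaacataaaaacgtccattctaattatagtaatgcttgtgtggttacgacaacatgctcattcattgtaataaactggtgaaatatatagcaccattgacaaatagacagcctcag
PYL2: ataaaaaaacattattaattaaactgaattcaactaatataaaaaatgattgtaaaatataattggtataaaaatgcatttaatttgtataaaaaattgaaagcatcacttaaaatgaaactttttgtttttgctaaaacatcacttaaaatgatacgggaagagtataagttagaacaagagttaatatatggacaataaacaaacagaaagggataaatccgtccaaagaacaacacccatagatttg
For PYL7 only 30 bases around its G-box are shown, at chr4:446896-446925 (+ strand), 82 to 53 bases upstream, with the G-box in capitals. The PYL7 window overlaps 221 bases of an exon of AT4G01023.
PYL7: gagagatatacaCACGTGcttaaagtcaac

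On both strands, ACGTG occurred in 1 of the 8 receptor windows examined, that of PYL7, against 22.9% of the windows of 27443 genes. PYL7 had 3 matches, of which 2 overlap within a single palindromic G-box (CACGTG), 70 to 65 bases upstream. The G-box occurred in 6.49% of all windows, and the PBE-box (CACATG) in 11.1% of all windows and in none of the 8. These are matches of letters within 250 bases, and binding was not measured.

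Depth was even, from 13722850 to 17538529 counts per library. Levels are given as CPM (each count over the scaled library size) after TMM scaling, and a gene is called changed where edgeR's quasi-likelihood test, fitted to all 24 libraries, gave a Benjamini-Hochberg adjusted p under 0.05 over the 20828 genes. As a check of the genotype, PIF3 read 0.873 to 24.6 CPM in the pifq libraries and 28.3 to 160.4 in the WT libraries, and PIF5 was lower in pifq than in WT without overlap in each of the 4 conditions. PIF1 and PIF4 transcripts were still counted in pifq, at 58.9 to 98.6 and 49.0 to 199.8 CPM. In dark mock both were called higher in pifq than in WT, PIF1 at 91.2 ± 7.19 against 37.6 ± 0.683 CPM and PIF4 at 63.4 ± 13.3 against 31.5 ± 2.66 (SD, n = 3). In dark ABA both were again called higher, PIF1 at 66.4 ± 8.98 against 54.8 ± 2.42 CPM and PIF4 at 154.4 ± 15.3 against 69.6 ± 3.42. In light mock, 1 of the 4 genes mutated in pifq, PIF1, was called higher in pifq and 3 lower, PIF4 among them. In light ABA 0 were higher and 3 lower, so neither PIF1 nor PIF4 was called higher there and at least 1 of them was called lower. The library is bulk RNA, so fewer cells of a type and less RNA per cell cannot be told apart.

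PYL4 was the most abundant receptor transcript in every mock group, and in no ABA group. Per kilobase of exon, the 9 receptors summed to 298.8 ± 13.1 CPM per kb in WT dark mock (SD, n = 3), 354.2 ± 46.7 in WT light mock, 360.5 ± 20.2 in pifq dark mock and 446.6 ± 58.6 in pifq light mock. PYL4 alone made up 39.4%, 45.4%, 51.6% and 44.8% of those sums. With ABA the sums were 157.1 ± 8.05 CPM per kb in WT dark, 120.6 ± 11.8 in WT light, 121.5 ± 8.30 in pifq dark and 126.9 ± 7.81 in pifq light, and in each condition the ABA and mock libraries did not overlap.

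The gene in first place under ABA differed between the dark and the light groups. In darkness it was PYL8, with 33.3 ± 2.48% of the sum in WT and 34.3 ± 2.71% in pifq. In light it was PYR1, with 34.2 ± 3.24% in WT and 32.4 ± 2.77% in pifq. The first place did not change in any of the 8 groups when the longest transcript or the coding length replaced the union of exons as length, whereas lower places did: with coding length PYL8 stood before PYR1 in the light mock groups and PYL5 before PYR1 in the dark mock groups.

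The order in WT dark mock, in mean CPM per kb, ran from PYL4 at 117.6, PYL8 at 71.7 and PYR1 at 41.5 through PYL5 at 38.4, PYL1 at 14.1 and PYL9 at 11.4 to PYL7 at 2.31, PYL6 at 1.10 and PYL2 at 0.676. Neighbours whose libraries overlapped there were PYR1 with PYL5 and PYL6 with PYL2. In WT light mock no pair of neighbours overlapped, and PYL6 at 5.35 and PYL2 at 3.80 CPM per kb both stood above PYL7 at 2.82. In pifq dark mock PYR1 overlapped PYL5, and among the 3 lowest genes PYL6 at 3.55 CPM per kb overlapped PYL2 at 2.4, and PYL2 overlapped PYL7 at 2.26, whereas PYL6 lay above PYL7 in every library. In pifq light mock PYR1 at 73.2, PYL8 at 69.5 and PYL5 at 56.6 CPM per kb could not be ordered beyond their spread, nor could PYL2 and PYL7.

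PYL6 was last in the WT light, pifq dark and pifq light ABA groups, at 0.0669 to 0.146 CPM per kb, without overlap with the next gene. In WT dark ABA it was also lowest by its mean, 0.117 CPM per kb, but overlapped PYL2. Other neighbours that overlapped under ABA were PYR1 with PYL5 and PYL9 with PYL1 in WT dark, PYL1 with PYL5 in WT light, PYL4 with PYR1 and PYL1 with PYL9 in pifq dark, and PYL4 with PYL5 and PYL5 with PYL1 in pifq light.

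**Figure D1:**
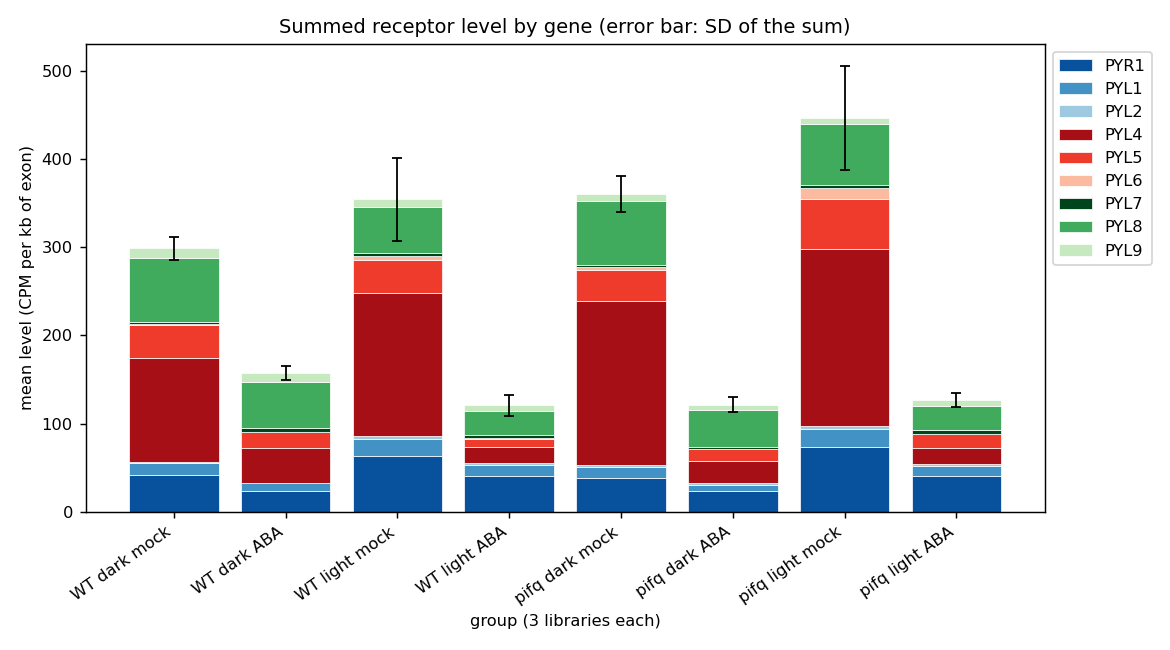
Stacked bars give the mean level of each of the 9 receptor genes per group in CPM per kb of exon, with the SD of the sum over 3 libraries as error bar. The mock bars reach 298.8 to 446.6 CPM per kb with PYL4 (dark red) the largest part of each, and the ABA bars reach 120.6 to 157.1.

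The remaining family members were near the limit of detection. PYL3, PYL10, PYL11, PYL12 and PYL13 were each at or below 0.398 CPM in every library and did not have enough reads to be tested. PYL13 had 15 reads over the WT dark ABA group, 11 over the pifq dark ABA group, 1 over the WT light ABA group and 5 over the pifq light ABA group, and 0 in all 4 mock groups, which allows up to 0.218 CPM (3 counts) in the smallest mock library after scaling, for counting error only. PYL3 had 7 reads in WT dark mock and 5 with ABA, 1 and 7 in pifq dark, 0 and 7 in WT light and 0 and 5 in pifq light. PYL10 had 0 to 2 reads per group, PYL11 had 10 and 8 reads in the light ABA groups and 0 to 3 in the others, and PYL12 had at most 3 reads in any group.

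ABA lowered most receptor transcripts in each of the 4 conditions. In WT dark 6 of 9 were lower and 1, PYL7, was higher, where 17.5% of all genes tested were called lower and 22.8% higher. In WT light 7 of 9 were lower, against 19.0% of all genes, in pifq dark 7 of 9, against 22.7%, and in pifq light 7 of 9, against 23.0%. The median log2 change of the 9 was -0.85, -0.93, -0.79 and -0.88 in that order, and the median of all genes was 0.07, 0.03, 0.03 and -0.01. PYR1, PYL1, PYL4, PYL5, PYL6 and PYL8 were lower in all 4 conditions. With libraries scaled by their totals alone, the median of all genes moved to between -0.07 and -0.19 and the share of higher genes among those called fell from 50.7% to 56.6% down to 31.1% to 35.9%. No receptor called under ABA changed direction or lost its call under that scaling.

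Subfamily II held the largest falls. PYL6, known to interact with the jasmonate regulator MYC2, was counted 35, 30 and 36 times in the WT dark mock libraries and 0, 3 and 6 times with ABA. In WT light the counts were 124, 136 and 131 in mock and 6, 4 and 0 with ABA. In pifq dark they were 83, 77 and 137 against 4, 1 and 0, and in pifq light 274, 342 and 281 against 6, 1 and 1. No ABA library reached any mock library of its condition. The fitted log2 changes were -3.24 ± 0.61 (SE), -5.11 ± 0.51, -5.62 ± 0.59 and -6.50 ± 0.51, with edgeR adjusted p of 0.000212, 8.62e-08, 1.32e-07 and 1.97e-09. Their size rests on single ABA libraries with few reads: without replicate 1 of the ABA group the value was -2.63 in WT dark, -5.78 in WT light, -7.15 in pifq dark and -7.79 in pifq light, and without replicate 3 it was -4.23 in WT dark.

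PYL4 read 165.8, 165.6 and 176.4 CPM in WT dark mock and 53.3, 58.8 and 57.6 with ABA. In WT light it read 276.7, 238.0 and 183.9 in mock and 23.4, 33.5 and 22.0 with ABA. In pifq dark it read 259.2, 255.1 and 288.7 in mock and 33.8, 33.2 and 41.5 with ABA. In both genotypes and in light and darkness the mock libraries lay well apart from the ABA libraries. In pifq light the values were 244.8, 283.6 and 336.0 CPM in mock and 25.4, 32.8 and 19.7 with ABA. The log2 change was -1.58 ± 0.17 in WT dark, -3.14 ± 0.18 in WT light, -2.89 ± 0.18 in pifq dark and -3.47 ± 0.19 in pifq light, with edgeR adjusted p from 1.11e-11 to 2.36e-07.

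PYL5, whose overexpression is known to raise drought tolerance, fell in all 4 conditions without overlap of the libraries. Mock means were 59.1 ± 4.75 CPM (SD) in WT dark, 57.3 ± 12.1 in WT light, 53.9 ± 4.28 in pifq dark and 87.2 ± 21.6 in pifq light. With ABA they were 28.7 ± 3.32, 14.9 ± 3.40, 21.8 ± 3.08 and 24.1 ± 5.25 CPM. The log2 changes were -1.04 ± 0.19, -1.94 ± 0.20, -1.31 ± 0.19 and -1.86 ± 0.20 (SE), with edgeR adjusted p from 1.66e-07 to 0.000164.

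In subfamily III the called falls were each under 1 log2 unit. PYR1, found through its sensitivity to the agonist pyrabactin, had mock means of 53.5 ± 2.44, 81.2 ± 5.46, 49.5 ± 8.90 and 94.4 ± 10.9 CPM in WT dark, WT light, pifq dark and pifq light, and ABA means of 29.7 ± 9.71, 52.8 ± 2.79, 30.03 ± 3.15 and 52.9 ± 5.13. Its log2 change lay between -0.62 ± 0.16 and -0.85 ± 0.16 in the 4 conditions, with edgeR adjusted p from 0.000186 to 0.00313. PYL1, its close paralogue, changed by -0.61 ± 0.12, -0.67 ± 0.12, -0.81 ± 0.13 and -0.88 ± 0.12 (edgeR adjusted p 6.28e-06 to 0.000445). The libraries of both genes did not overlap between ABA and mock in any condition.

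PYL2, known for its part in the guard cell response to ABA, was called lower in light and was not called in darkness. The difference between these responses was itself not called. It was -0.0017 in WT (edgeR adjusted p of the interaction = 0.996) and -0.24 in pifq (0.699). In WT light PYL2 read 5.04, 5.02 and 4.60 CPM in mock and 2.68, 2.55 and 2.44 with ABA, a log2 change of -0.93 ± 0.25 (edgeR adjusted p = 0.0053). In pifq light the change was -0.82 ± 0.26 (edgeR adjusted p = 0.0113), and without pifq light ABA replicate 3 it was -0.70 with an adjusted p of 0.0534. In WT dark it read 0.647, 1.23 and 0.728 CPM in mock and 0.831, 0.239 and 0.256 with ABA, so the groups overlapped, and the change of -0.93 ± 0.37 had an adjusted p of 0.0516. That value is close to the threshold: the adjusted p was 0.0406 with RLE size factors, 0.0312 with library totals, 0.0426 in DESeq2, 0.00147 without WT dark ABA replicate 1, where the change was -1.78, and 0.0371 without WT dark mock replicate 1. In pifq dark the change was -0.58 ± 0.26 (edgeR adjusted p = 0.0687), which became 0.0298 with library totals, 0.0429 in DESeq2 and 0.0499 without pifq dark ABA replicate 2.

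Calls, though not sizes of change, were the least uniform in subfamily I. PYL8, known for its part in lateral root growth, read 123.1, 127.8 and 142.4 CPM in WT dark mock and 93.7, 91.0 and 101.7 with ABA. In WT light it read 101.4, 95.5 and 92.7 in mock and 42.7, 59.2 and 48.3 with ABA. It fell in all 4 conditions, with log2 changes of -0.46 ± 0.10, -0.95 ± 0.10, -0.79 ± 0.10 and -1.36 ± 0.10 in WT dark, WT light, pifq dark and pifq light (edgeR adjusted p 4.2e-10 to 0.000557). PYL9, also called RCAR1, was lower in pifq dark only by this test, at 9.69 ± 0.75 CPM in mock and 7.06 ± 1.20 with ABA (log2 change -0.46 ± 0.15, edgeR adjusted p = 0.0171). That call was lost without pifq dark ABA replicate 1 (0.0545), pifq dark ABA replicate 2 (0.0923) or pifq dark mock replicate 2 (0.0574). In WT dark PYL9 changed by -0.20 ± 0.14 (adjusted p = 0.286), or by -0.42 with 0.0185 without WT dark ABA replicate 3. In WT light it changed by -0.29 ± 0.15 (adjusted p = 0.137; 0.0255 with library totals).

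PYL7 was the receptor called higher with ABA, and that call was fragile. In WT dark it read 2.89, 3.08 and 2.63 CPM in mock and 5.04, 3.35 and 7.56 with ABA, so the ABA libraries were all above the mock libraries but spread widely. The log2 change was 0.88 ± 0.23 (edgeR adjusted p = 0.00377). Without WT dark ABA replicate 3 it was 0.55 with an adjusted p of 0.0516. In the other conditions PYL7 was not called, at 0.25 ± 0.24 in WT light, 0.15 ± 0.24 in pifq dark and 0.35 ± 0.23 in pifq light. PYL7 overlaps AT4G01030, which lies on the opposite strand, by 571 bases, and a lncRNA, AT4G03845, by 269 bases. The libraries were stranded, but whether the counting used strand is not stated in the labels, so the reads of these genes cannot be told apart with certainty. In WT dark AT4G01030 read 3.45 ± 0.97 CPM without and 4.44 ± 0.81 with ABA.

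**Figure D2:**
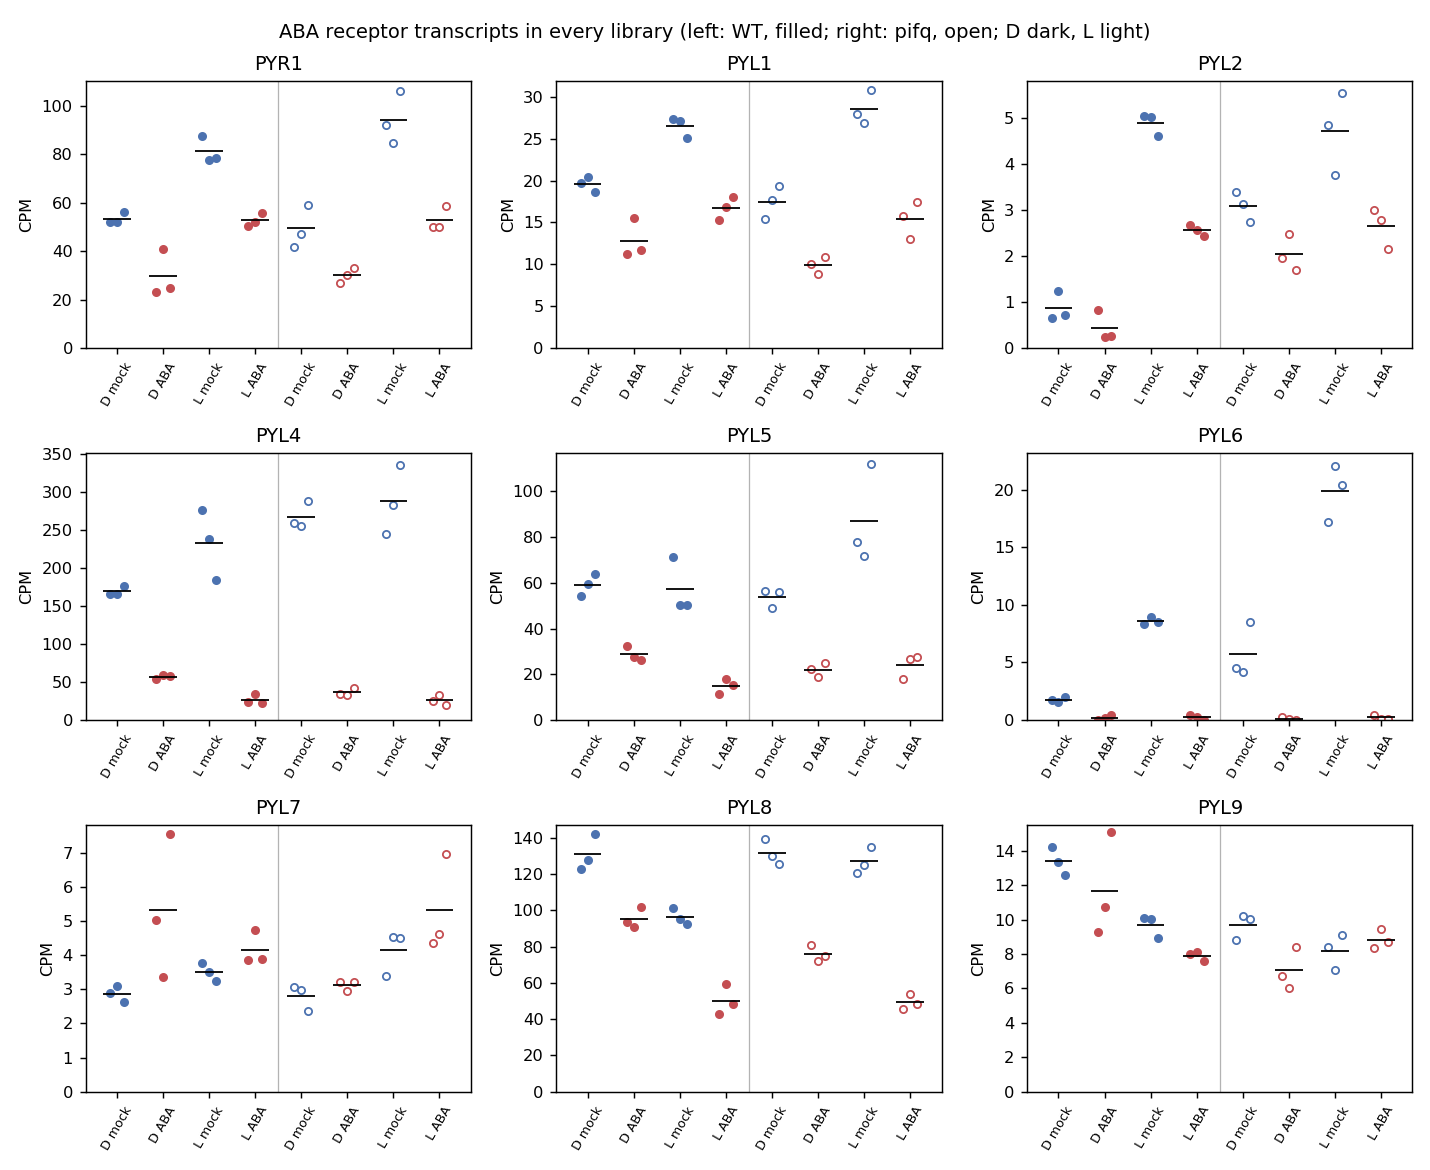
Each panel plots 1 receptor gene in CPM, with a point per library, blue for mock and red for ABA, filled for WT and open for pifq, and a line at the mean of each group of 3. PYL6 drops to the foot of the axis in all red groups, and PYL4 falls far below its blue points in each condition, least in WT dark. The red points of PYL7 lie level with or above the blue ones.

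Markers of several cell types moved with ABA as well. Called higher over all genes tested were 22.8%, 21.0%, 26.0% and 23.7% in WT dark, WT light, pifq dark and pifq light. Called lower were 17.5%, 19.0%, 22.7% and 23.0% in that order. The summed level of 4 root endodermis genes was 227.2 ± 9.71 CPM in WT dark mock and 125.0 ± 51.6 with ABA, 77.8 ± 11.8 and 14.3 ± 8.21 in WT light, 111.3 ± 7.79 and 29.4 ± 11.3 in pifq dark, and 41.4 ± 4.41 and 7.86 ± 0.477 in pifq light. Of the 3 of these genes with enough reads, 1 was called lower in WT dark and 3 in each other condition. All 4 guard cell markers were lower with ABA in WT light, pifq dark and pifq light, and 1 was higher in WT dark, where their sum was 26.8 ± 4.77 CPM in mock and 31.2 ± 5.15 with ABA. The 5 root hair markers summed to 34.4 ± 12.04 CPM in WT dark mock and 5.47 ± 1.496 with ABA, all 5 called lower, and to 17.6 ± 8.92 and 55.3 ± 24.7 CPM in pifq dark, 4 called higher. In light they summed to 45.1 ± 3.08 and 47.8 ± 21.7 CPM in WT and to 25.1 ± 6.17 and 29.4 ± 3.05 in pifq, with 1 of 5 called, higher in pifq. The 2 phloem companion cell markers summed to 240.6 ± 14.4 and 397.4 ± 49.95 CPM in WT dark, 432.0 ± 31.3 and 577.4 ± 45.7 in WT light, 389.4 ± 24.9 and 416.1 ± 68.8 in pifq dark and 385.2 ± 59.0 and 567.9 ± 30.3 in pifq light. Both were called higher with ABA in each condition except pifq dark, where 1 was. All 5 seed markers were higher with ABA in the 4 conditions, from 6.31 to 34.7 CPM in sum in the mock groups to 1494 to 4171 in the ABA groups, and SESA3 was at 0 in WT light mock. The 4 photosynthetic leaf markers summed to 3627 ± 1224 and 3481 ± 906 CPM in WT dark and 13780 ± 378 and 12560 ± 624 in WT light. In pifq their sums were 8143 ± 1254 and 10260 ± 1311 CPM in darkness and 13880 ± 1892 and 15630 ± 1030 in light. Of these 4, 1 was called lower in each WT condition, 1 higher and 1 lower in pifq dark, and 0 in pifq light. The part of these cell types in the receptor changes was not tested.

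Downstream of the receptors, transcripts of the phosphatases went the other way. All 9 clade A PP2C genes were higher with ABA in all 4 conditions, where 22.8%, 21.0%, 26.0% and 23.7% of all genes tested were called higher in WT dark, WT light, pifq dark and pifq light, and 17.5%, 19.0%, 22.7% and 23.0% lower. HAI3, a highly ABA-induced member, was at 0.778 ± 0.145 CPM in WT dark mock and 118.6 ± 10.8 with ABA (log2 change 7.23 ± 0.24, edgeR adjusted p = 1.44e-14). Summed per kb, the PP2Cs rose from 145.4 ± 6.41 to 794.8 ± 121.9 CPM per kb in WT dark, from 84.8 ± 4.70 to 520.6 ± 46.7 in WT light, from 94.6 ± 3.53 to 694.9 ± 46.7 in pifq dark and from 72.4 ± 7.48 to 503.0 ± 63.6 in pifq light, without overlap of the libraries. The ratio of summed receptor to summed PP2C level per kb was therefore 2.06 ± 0.17 in WT dark mock, 4.19 ± 0.65 in WT light mock, 3.81 ± 0.13 in pifq dark mock and 6.22 ± 1.10 in pifq light mock. With ABA it was 0.200 ± 0.026, 0.233 ± 0.033, 0.175 ± 0.00083 and 0.255 ± 0.035. The ratio is one of transcripts and says nothing of the amounts of protein.

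SnRK2 kinase genes went both ways. Against these shares of all genes, of 10 SnRK2 kinase genes, 3, 5, 7 and 5 were higher and 1, 2, 2 and 2 lower with ABA in WT dark, WT light, pifq dark and pifq light. SnRK2.6 (OST1), the kinase that closes stomata, rose from 47.6 ± 2.2 to 116.8 ± 16.9 CPM in WT dark (log2 change 1.296 ± 0.10), and SnRK2.8 fell from 56.5 ± 2.63 to 11.9 ± 3.11 CPM (-2.25 ± 0.17). Of 7 ABF and ABI5 family genes tested, 5, 5, 6 and 6 were higher, ABF4 among them in each condition, and of 9 ABA synthesis genes tested 7, 6, 6 and 3 were higher. The rest of both lists was not called. All 4 CYP707A genes, which encode ABA hydroxylases of ABA breakdown, were higher in each condition. In CYP707A2 the log2 change ran from 3.40 ± 0.20 in WT dark to 5.22 ± 0.20 in pifq dark.

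Among 11 tested genes for receptor turnover and partners, 2, 1, 3 and 2 were higher and 5, 4, 1 and 4 lower in the same order, read against the same shares of all genes. PUB22, a U-box ubiquitin ligase, fell in light, from 17.9 ± 2.11 to 4.68 ± 1.25 CPM in WT and from 17.1 ± 1.66 to 4.72 ± 0.53 in pifq (log2 changes -1.94 ± 0.23 and -1.85 ± 0.23). CAR1, a C2-domain protein that brings receptors to membranes, fell in WT dark from 36.4 ± 2.68 to 24.6 ± 0.56 CPM and in WT light from 26.4 ± 2.13 to 15.7 ± 0.835. CAR9, of the same list, rose in WT dark from 7.56 ± 1.22 to 10.5 ± 0.776 CPM. In pifq dark CAR9 rose from 6.82 ± 0.796 to 9.94 ± 0.497 CPM (log2 changes 0.48 ± 0.12 and 0.54 ± 0.12).

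How far ABA lowered a receptor differed between light and dark seedlings for 3 genes in WT. Of all genes tested, 11.9% had a difference of that kind. Time on ABA was 5 days in light and 4 days in darkness, so light and length of treatment cannot be told apart. PYL4 fell further in light than in darkness by 1.56 ± 0.24 on the log2 scale (edgeR adjusted p of the interaction = 0.000208), so that it stood at 26.3 ± 6.29 CPM in WT light ABA and 56.6 ± 2.88 in WT dark ABA. PYL5 differed by -0.90 ± 0.27 (adjusted p = 0.0356) and PYL8 by -0.49 ± 0.14 (adjusted p = 0.0211). Both of these calls lie near the threshold. The PYL5 call was lost without any of 7 of the 12 libraries, namely replicates 1 and 2 of WT dark ABA, 1 and 2 of WT dark mock, 1 and 3 of WT light ABA and 1 of WT light mock (adjusted p 0.0502 to 0.0975). The PYL8 call was lost without any of 5, namely replicate 3 of WT dark ABA, 1 of WT dark mock, 1 and 3 of WT light ABA and 1 of WT light mock (0.0517 to 0.0611), and in a fit on the compared groups alone (0.0653). PYL4 kept its call without each library.

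In pifq 1 receptor of 9, PYL8, had such a difference, against 18.7% of all genes. Its fall was deeper in light by 0.57 ± 0.14 on the log2 scale (edgeR adjusted p = 0.00593), from 131.7 ± 7.20 to 76.0 ± 4.37 CPM in darkness and from 127.1 ± 7.53 to 49.3 ± 4.09 in light. For PYL4 in pifq the difference was -0.58 ± 0.24 (adjusted p = 0.0992), or -0.78 with 0.0308 without pifq light ABA replicate 2, and for PYL9 it was 0.57 ± 0.22 (adjusted p = 0.0731), or 0.71 with 0.0360 without pifq dark ABA replicate 3.

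In darkness, the ABA response differed between pifq and WT for 1 receptor of 9, PYL4, where 11.4% of all genes differed. PYL4 was higher in pifq than in WT without ABA, at 267.7 ± 18.4 against 169.3 ± 6.19 CPM (log2 difference 0.66 ± 0.17, edgeR adjusted p = 0.00291), and lower in pifq with ABA, at 36.2 ± 4.60 against 56.6 ± 2.88 CPM (-0.65 ± 0.17, adjusted p = 0.00531). The difference between the ABA responses was -1.31 ± 0.24 on the log2 scale (adjusted p = 0.00137) and stayed past the threshold in every alternative run. Cell type markers also differed here, with all 5 root hair markers called higher for the same interaction. Called lower were 3 of 4 guard cell, 1 of 3 root endodermis and 1 of 2 phloem companion cell markers. No photosynthetic leaf or seed marker was called. The part of these cell types in the PYL4 difference was not tested. PYL7 differed by -0.73 ± 0.33 (adjusted p = 0.169), which was -0.97 with 0.0394 without WT dark ABA replicate 2. In light, edgeR called 0 of 9 receptors for such a difference, 1 had an unadjusted p under 0.05 and DESeq2 called 0, where 0.216% of all genes were called.

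Without ABA in darkness, pifq had more PYL2, PYL4 and PYL6 and less PYL9 than WT, 3 of 9 higher and 1 lower, where 23.5% of all genes were higher and 20.9% lower. PYL2 read 3.39, 3.13 and 2.73 CPM in pifq and 0.647, 1.23 and 0.728 in WT, a log2 difference of 1.82 ± 0.28 (edgeR adjusted p = 2.72e-05). PYL6 read 4.47, 4.15 and 8.50 CPM in pifq and 1.74, 1.54 and 2.02 in WT (1.68 ± 0.36, adjusted p = 0.000754), with pifq replicate 3 standing above the other 2. All pifq libraries were above all WT libraries in both genes. PYL9 was at 9.69 ± 0.75 CPM in pifq and 13.4 ± 0.80 in WT (-0.47 ± 0.15, adjusted p = 0.0131), a call lost without WT dark mock replicate 1 (0.0513) or pifq dark mock replicate 1 (0.0635). PYR1, PYL1, PYL5, PYL7 and PYL8 were not called, with PYL8 at 131.7 ± 7.20 CPM in pifq and 131.1 ± 10.07 in WT.

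With ABA in darkness, 1 receptor was higher in pifq and 5 were lower, where 22.2% of all genes were higher and 17.5% lower. PYL2 was again higher, at 2.05 ± 0.39 against 0.442 ± 0.337 CPM (log2 difference 2.16 ± 0.34, edgeR adjusted p = 3.6e-05), which was 3.02 without WT dark ABA replicate 1. Beside PYL4, PYL8 was lower at 76.0 ± 4.37 against 95.5 ± 5.61 CPM (-0.33 ± 0.10, adjusted p = 0.00903) and PYL9 at 7.06 ± 1.20 against 11.7 ± 3.02 CPM (-0.72 ± 0.15, adjusted p = 0.000709). PYL1 was lower, with a log2 difference of -0.37 ± 0.13 (adjusted p = 0.0303). That call was lost without WT dark ABA replicate 2 (-0.20, 0.256), without pifq dark ABA replicate 1 (0.0572) or 2 (0.141), and in a fit on the compared groups alone (0.0995). PYL7 was lower at 3.13 ± 0.142 against 5.32 ± 2.12 CPM (-0.76 ± 0.23, adjusted p = 0.012), lost without WT dark ABA replicate 3 (-0.43, 0.136) and in a fit on the compared groups alone (0.070).

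In light, fewer genes distinguished pifq from WT. Of the receptors in mock, 3 of 9 were higher in pifq, against 5.64% of all genes. PYL6 read 17.2, 22.1 and 20.5 CPM in pifq and 8.33, 8.99 and 8.48 in WT (log2 difference 1.21 ± 0.31, edgeR adjusted p = 0.0152), PYL8 was at 127.1 ± 7.53 against 96.5 ± 4.40 CPM (0.40 ± 0.10, adjusted p = 0.011) and PYL5 at 87.2 ± 21.6 against 57.3 ± 12.1 CPM (0.61 ± 0.18, adjusted p = 0.0396). The libraries of the 2 genotypes did not overlap in these 3 genes, as in 32.4% of all genes, but each call was lost without single libraries. For PYL6 these were WT light mock replicates 1 and 3 and pifq light mock replicates 2 and 3 (0.0520 to 0.0673). For PYL8 they were WT light mock replicate 3 (0.0562) and pifq light mock replicate 3 (0.0607), and for PYL5 they were WT light mock replicates 2 and 3 and pifq light mock replicate 3 (0.142 to 0.240, with a log2 difference of 0.39 without the last). The PYL5 call was also lost with no filter on low counts (0.0549) and in a fit on the compared groups alone (0.112).

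With ABA in light, edgeR called 0 of 9 receptors between pifq and WT, where 1.28% of all genes were called, and 1 receptor, PYL5, had an unadjusted p under 0.05. PYL5 read 18.1, 26.8 and 27.5 CPM in pifq and 11.3, 18.0 and 15.5 in WT, just without overlap, with a log2 difference of 0.69 ± 0.20 (edgeR adjusted p = 0.11). DESeq2 called it, with 0.71 and an adjusted p of 0.0253. In this comparison same-numbered libraries deviated together, and with the replicate number as a block the difference was 0.70 with an adjusted p of 2.38e-05, in a fit that called 20.9% of the 18804 genes it tested.

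In WT mock, PYL2 and PYL6 differed most between light and dark seedlings, which also differed in age. There 5 of 9 receptors were higher in light and 2 lower, where 32.7% of all genes were higher and 32.2% lower. PYL2 rose from 0.869 ± 0.317 to 4.89 ± 0.252 CPM (log2 difference 2.48 ± 0.28, edgeR adjusted p = 9.58e-08) and PYL6 from 1.77 ± 0.238 to 8.599 ± 0.347 CPM (2.28 ± 0.36, adjusted p = 1.03e-05). PYR1 differed by 0.60 ± 0.16 (adjusted p = 0.00198), PYL1 by 0.44 ± 0.12 (0.00323) and PYL4 by 0.46 ± 0.17 (0.0197), whereas PYL8 fell by 0.44 ± 0.10 (0.000367) and PYL9 by 0.47 ± 0.15 (0.00859). The PYL4 call was lost without WT dark mock replicate 1 (0.0518) or 2 (0.0526) and without WT light mock replicate 1 (0.124). Scaling by library totals moved the median of all genes to between -0.18 and -0.29 in the 4 comparisons of light with darkness. Under it PYL1 in WT mock was 0.26 (adjusted p = 0.0579), PYL4 in WT mock 0.28 (0.114) and PYL1 in WT ABA 0.21 (0.129), and the share of higher genes among those called went from 46.1% to 50.6% down to 29.0% to 38.2%.

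In WT under ABA, 3 receptors were higher in light and 4 lower, where 31.5% and 31.1% of all genes were. PYL2 was higher by 2.48 ± 0.33 (edgeR adjusted p = 1.45e-06; 3.33 without WT dark ABA replicate 1) and PYR1 by 0.83 ± 0.16 (0.000129). PYL4, PYL5, PYL8 and PYL9 were lower, by log2 differences of -1.10 ± 0.18, -0.95 ± 0.20, -0.93 ± 0.10 and -0.56 ± 0.15, and PYL9 was at -0.34 without WT dark ABA replicate 3. PYL1 was higher by 0.38 ± 0.13 (0.012), a call lost without WT dark ABA replicate 1 (0.0708) or 3 (0.0558) and without WT light ABA replicate 3 (0.0557). PYL6, with few reads, was not called at 0.41 ± 0.93 (adjusted p = 0.719). PYL7 was at -0.35 ± 0.23 (adjusted p = 0.186), or -0.59 with 0.0203 without WT dark ABA replicate 2 and -0.52 with 0.0470 with library totals.

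In pifq mock, 6 receptors were higher in light, where 29.0% of all genes were: PYR1 by 0.93 ± 0.16, PYL1 by 0.71 ± 0.12, PYL5 by 0.69 ± 0.18, PYL6 by 1.81 ± 0.31, PYL2 by 0.60 ± 0.24 and PYL7 by 0.56 ± 0.24 on the log2 scale (edgeR adjusted p 3.52e-05 to 0.0484). The PYL2 call (adjusted p = 0.0385) was lost without any pifq dark mock library and without pifq light mock replicate 1 or 3 (0.0512 to 0.147), and with library totals (0.172). The PYL7 call (0.0484) was lost without any pifq dark mock library, without pifq light mock replicate 2 or 3 (0.0596 to 0.153), and with RLE size factors, library totals, no filter, DESeq2 or a fit on the compared groups (0.0522 to 0.186).

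In pifq under ABA, 3 receptors were higher and 2 lower in light, where 25.9% and 30.2% of all genes were. PYR1 differed by 0.82 ± 0.16, PYL1 by 0.64 ± 0.13 and PYL8 by -0.62 ± 0.10 (edgeR adjusted p 1.44e-05 to 0.000301), and PYL1 by 0.42 with library totals. PYL7 was higher by 0.76 ± 0.24 (0.00942), lost without pifq light ABA replicate 3 (0.0891). PYL4 was lower by a log2 difference of -0.48 ± 0.18 (0.0286), lost without pifq dark ABA replicate 3 (0.126) and without pifq light ABA replicate 1 (0.0725) or 3 (-0.32, 0.163), and in a fit on the compared groups alone (0.0789). PYL9 was at 0.32 ± 0.16 (adjusted p = 0.0851), or 0.47 with 0.0261 without pifq dark ABA replicate 3.

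**Figure D3:**
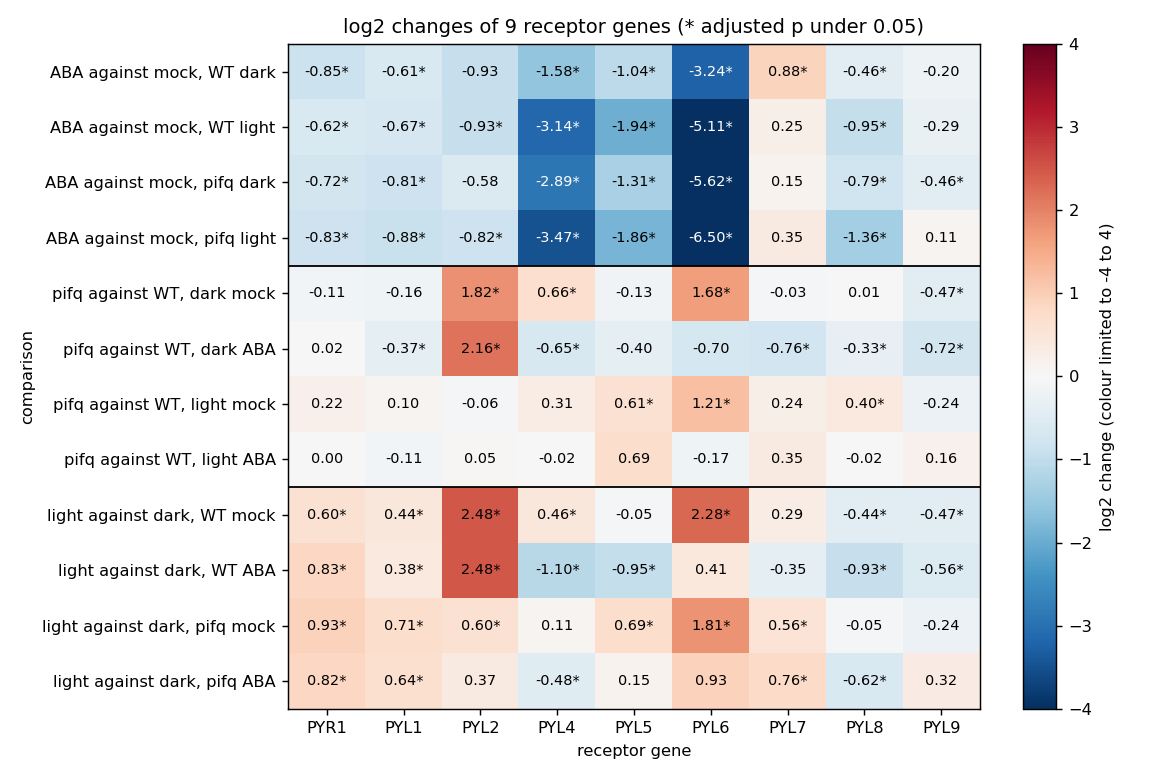
The grid gives the log2 change of each receptor gene (columns) in 12 comparisons (rows), red for higher and blue for lower in the first-named group, with an asterisk where edgeR's adjusted p is under 0.05. The top 4 rows are blue except for PYL7 and, in pifq light, PYL9, and the row for pifq against WT in light with ABA has no asterisk.

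The effect of pifq without ABA differed between light and darkness for 2 of 9 receptors, where 18.4% of all genes differed. PYL2 was the larger: pifq and WT were 1.82 ± 0.28 apart in darkness and -0.06 ± 0.24 in light, a difference of -1.87 ± 0.37 on the log2 scale (edgeR adjusted p = 0.00106) that was called in every alternative run. In light PYL2 read 4.84, 3.75 and 5.53 CPM in pifq and 5.04, 5.02 and 4.60 in WT, so the genotypes overlapped there. PYL8 differed by 0.39 ± 0.13 (adjusted p = 0.0466), a call lost without any of 9 of the 12 libraries, namely WT dark mock 2 and 3, WT light mock 1, 2 and 3, pifq dark mock 2 and 3 and pifq light mock 2 and 3 (0.0509 to 0.124), and with no filter on low counts (0.0608). PYL5 differed by 0.74 ± 0.26 (adjusted p = 0.0535), and was called with RLE size factors (0.0388), library totals (0.0332), DESeq2 (0.0242), without WT light mock replicate 1 (0.0186) and without pifq light mock replicate 2 (0.0378).

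Guard cell markers stood in the same order of means over the mock groups as PYL2. For PYL2 the order of the 2 light mock groups was not resolved, since their libraries overlapped (means 4.89 CPM in WT and 4.71 in pifq). FAMA, HT1, MYB60 and KAT1 summed to 26.8 ± 4.77 CPM in WT dark mock, 80.7 ± 4.89 in pifq dark mock, 92.8 ± 6.73 in pifq light mock and 104.9 ± 7.92 in WT light mock. All 4 were higher in pifq than in WT in darkness without ABA, all 4 were higher in light than in darkness in WT mock, and all 4 were called lower for the genotype by light difference. Both phloem companion cell markers were called the same way, as were 3, 4 and 2 of 4 photosynthetic leaf markers. Called lower in pifq in darkness were instead 3 of 3 root endodermis and 3 of 5 root hair markers. Of all genes tested, 23.5% and 32.7% were called higher in the first and second comparison. For the genotype by light difference 18.4% were called in either direction. Between pifq dark mock and pifq light mock, 2 guard cell markers were called higher in light and 1 lower, and 1 phloem marker each way. There 3 photosynthetic leaf markers were called higher in light and 0 lower, where 29.0% of all genes were higher and 28.3% lower. Photosynthetic leaf markers summed to 3627 ± 1224 CPM in WT dark mock, 8143 ± 1254 in pifq dark mock, and 13780 ± 378 and 13880 ± 1892 in the WT and pifq light mock groups. With ABA the guard cell sum was 31.2 ± 5.15 CPM in WT dark and 34.5 ± 1.34 in pifq dark, 2 of 4 genes called higher and 1 lower in pifq, where PYL2 was at 0.442 and 2.05 CPM. In light it was 43.6 ± 6.92 CPM in WT ABA and 42.0 ± 9.69 in pifq ABA. Between WT dark ABA and WT light ABA, where PYL2 was at 0.442 and 2.56 CPM, 2 guard cell genes were called higher and 1 lower. The part of these cell types in the level of PYL2 was not tested.

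**Figure D4:**
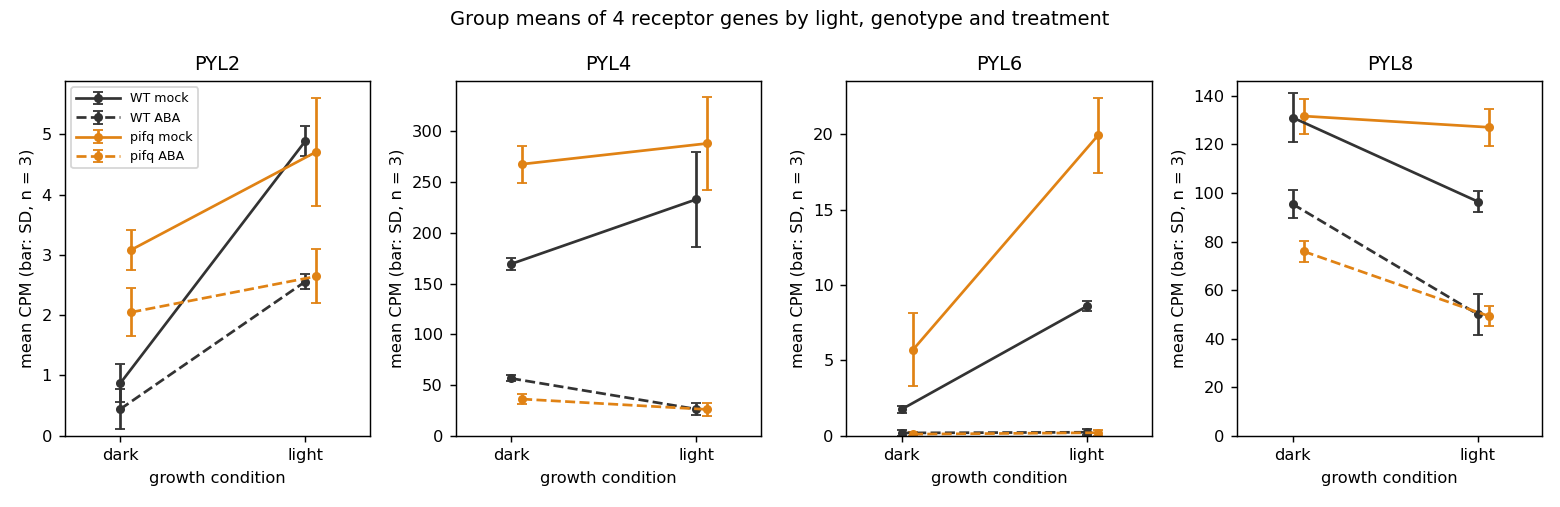
Lines join group means in darkness and light in CPM, with the SD of 3 libraries as bars, black for WT and orange for pifq, solid for mock and dashed for ABA. In the PYL2 panel the genotypes are apart in darkness and together in light, and in the PYL4 panel the order of the genotypes in darkness is opposite in mock and ABA.

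Correlations across the 24 libraries are given as a description, since libraries of 1 group share their condition. PYR1 and PYL1 had a Pearson r of log2 CPM of 0.94, PYL4 and PYL5 0.93, PYL4 and PYL6 0.91, PYL4 and PYL8 0.895, PYL5 and PYL8 0.86, PYL5 and PYL6 0.84 and PYL1 and PYL6 0.83, so pairs of different subfamilies were among the closest. Of 7347 other named genes with at least 5 CPM on average, those most like PYL4 were ERD6 and CSLD5 (r = 0.95 for each), and those most like PYL5 were TCH3 (0.95) and ERD6 (0.94). PYL6 was most like OPT1 (0.95) and CRK30 (0.94), PYR1 most like GLR1.1 (0.95) and PAD4 (0.94), and PYL1 most like MPK3 (0.95) and GGP1 (0.94). PYL2 was most like UPP and FAO3 (0.94 each), and PYL8 most like HSFA3 (0.96) and CRK29 (0.96). For PYL9 the closest were AXR3 and TUB6 (0.85 each). PYL7 had no gene as close, with GSTU5 at 0.78 and FP3 at 0.75.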

How the data were processed

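Values are raw counts per gene, deposited by the authors as a single table of 24 libraries. Per the labels' protocols, polyadenylated RNA went into stranded libraries with 100-base paired reads. The build TAIR10 and the tools STAR, SAMtools, FastQC and DESeq2 are named in the submitters' processing notes, which state no counting tool or strand setting. Depth was 13722850 to 17538529 counts. With edgeR 4.0.16 in R 4.3.3, counts were filtered by group, scaled by TMM and fitted with the robust quasi-likelihood model, 1 coefficient per group, 16 residual degrees of freedom. There were 17 contrasts, 5 of them interactions, each adjusted by Benjamini-Hochberg over 20828 genes. SEs are the log2 change divided by the root of F. Levels per kb use the union of RefSeq exons. Alternatives were RLE factors, library totals, no filter, DESeq2 1.42.0, the compared groups only, a replicate block and each library left out.

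The receptors and gene lists were chosen with earlier results of these data known, so no test over a list was made. Text names all 9 receptors, per list the 2 genes of lowest p without overlap or part of these, and for each receptor the 2 genes of highest r (prior count 2 for log2 CPM). Biological replicates are stated by the submitters. Same-numbered libraries deviated together, with every correlation above 0.1, between the genotypes for the dark mock groups (0.13, 0.15 and 0.32) and the light ABA groups (0.39, 0.51 and 0.34). The window upstream of 1 receptor gene is not reported here. No 2 replicates agreed within counting noise.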

Additional observations from a re-analysis of the deposited data

Results flagged for a closer look

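These 7 receptor responses differed between conditions by the interaction term of edgeR's quasi-likelihood fit (3 libraries a group), with adjusted p-values given in the comparisons above. In WT the fall with ABA was deeper in light than in darkness, with log2 differences of -1.56 for PYL4, -0.90 for PYL5 and -0.49 for PYL8. In pifq the same difference was -0.57 for PYL8. In darkness the fall of PYL4 with ABA was deeper in pifq than in WT, with a log2 difference of -1.31. Without ABA the difference between pifq and WT was lower in light than in darkness by -1.87 for PYL2 and higher by 0.39 for PYL8. Called over all genes tested were 11.9% for ABA by light in WT, 18.7% in pifq, 11.4% for ABA by genotype in darkness and 18.4% for genotype by light. For ABA by light in WT, the PYL5 call was lost without any of 7 of 12 libraries and the PYL8 call without any of 5. The PYL8 call for genotype by light was lost without any of 9 of 12.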

How the results depend on the processing

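No receptor with a change larger than its SE reversed in any alternative. Of 115 such results over the 17 contrasts, direction and side of the threshold held for 112 with RLE size factors, 104 with library totals, 112 with no filter on low counts, 110 in DESeq2, 107 in a fit on the compared groups and 103 with the replicate block. The number of receptors called stayed within 1.5 times except as follows. For pifq against WT in light with ABA it was 1 in DESeq2 and 1 with the replicate block in place of 0. For ABA by light in WT the replicate block gave 1 in place of 3, leaving PYL5 at an adjusted p of 0.0618 and PYL8 at 0.0733. For ABA by genotype in darkness the compared groups and the replicate block each gave 2 in place of 1, and for genotype by light no filter gave 1 in place of 2. Leaving out each library in turn gave 0 to 3 calls for pifq against WT in light mock, 3 to 5 for light against dark in pifq ABA, 1 to 3 for ABA by light in WT, 1 to 2 in pifq, 1 to 2 for ABA by genotype in darkness and 1 to 2 for genotype by light. The cause was not tested. A fit on the compared groups called PYL5 in dark ABA between genotypes (0.0367) and PYL8 for ABA by genotype in darkness (0.0449), and library totals called PYL9 between light and darkness in pifq mock (0.0122).

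Where replicate numbers did not pair the libraries, the replicate block left PYL7 in WT dark at 0.77 (adjusted p = 0.0649). It also ended the calls of PYL1 in dark ABA and PYL5 in light mock between genotypes, of PYL9 in WT ABA and of PYL2, PYL7 (mock) and PYL4 (ABA) in pifq between light and darkness. It called PYL5 in dark ABA between genotypes and PYL8 for ABA by genotype in darkness. Of the 2 paired comparisons, dark mock changed no call. Low counts limit PYL6 under ABA, with 5 to 10 reads per group, and PYL2 in WT dark.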
